A study of Mus musculus with 10 samples.

Results

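The genes described here are the 35 genes of the mitochondrial chromosome (chrM) in a table of 51467 mouse genes, measured by 3′-end sequencing in embryonic stem cells (ESCs). Membership was set by position: every row of the table on chrM was taken. Earlier results of these data were known when the choice was made. The 35 genes are 13 protein-coding genes and 22 tRNA genes, of which 26 lie on the plus strand and 9 on the minus strand (mt-Nd6 and 8 tRNA genes). The remaining 2 genes of the mitochondrial annotation, for the ribosomal RNAs, had been taken out of the annotation by the study before reads were counted, and are not analysed here.

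The libraries came from wild-type ESCs (WT, the V6.5 line, 3 libraries), from ESCs without DGCR8, which with Drosha releases the hairpins of most microRNAs from their primary transcripts (DGCR8 KO, 3 libraries), and from ESCs without DDX6, an RNA helicase that acts with the microRNA machinery (DDX6 KO, 2 libraries from each of 2 clones). All cells of these groups were cultured with fetal bovine serum, LIF and the 2i inhibitors PD0325901 and CHIR99021. The study names no other agent for these libraries. The DDX6 KO clones were derived from V6.5 with CRISPR; per the study, one carries a small insertion and the other a large deletion at the start of the same exon, so each clone is 1 allele state in 1 selected line. The DGCR8 KO cells are a line made earlier in the same laboratory, while the GEO record says of the knockouts in general that they were made with CRISPR. The study does not state the parent of that 1 line, so its genotype and its line history cannot be told apart. Nothing says that libraries of a group came from separate cultures, so p-values measure the spread between these libraries, which may be technical.

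The mitochondrial genome is transcribed from both strands into long precursors, from which the tRNAs are cut out and the messenger RNAs and ribosomal RNAs between them are released. Most of the released messenger RNAs receive short poly(A) tails, which in several of them complete the stop codon. Their products are core subunits of the respiratory chain and of ATP synthase: the Nd genes encode subunits of complex I, mt-Cytb of complex III, mt-Co1, mt-Co2 and mt-Co3 of complex IV, and mt-Atp6 and mt-Atp8 of ATP synthase.

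The assay primes on poly(A) and reads 50 bases near it, and only reads with a single place in the genome were kept and counted on the sense strand. A gene of chrM with an identical copy in the nuclear genome can therefore lose its reads, and the sequences that decide this are shown first. Both genomes hold mt-Nd3: its nuclear copy Gm28438, an unprocessed pseudogene on chromosome 1, differs from it at 1 of 345 aligned bases, T3C, counted from 1 at the 5′ end of mt-Nd3 with the mitochondrial base first. The first 30 bases of each are given with that base in capitals, from chrM:9459-9488 on the plus strand and chr1:24613090-24613119 on the minus strand of GRCm38.
mt-Nd3: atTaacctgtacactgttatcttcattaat
Gm28438: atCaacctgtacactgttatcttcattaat
A read that does not cover this base, or the last bases of mt-Nd3 outside the copy, matches both places equally well. Within mt-Co1 the copied stretch ends at a group of 6 differing bases, in capitals here, at chrM:6381-6410 on the plus strand and chr1:24616168-24616197 on the minus strand, where the nuclear copy is Gm29216.
mt-Co1: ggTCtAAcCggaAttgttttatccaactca
Gm29216: ggATtGGcAggaTttgttttatccaactca
The differences, in positions of mt-Co1, are T1056A, C1057T, A1059G, A1060G, C1062A and A1066T. Past them, mt-Co1 and Gm29216 were identical to the end of the gene.

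The 3′ ends of the messenger RNAs are shown for a pair of genes of different kinds, since the reads start from the tail that is added there. The last 30 bases of mt-Nd4 end on the T that begins a stop codon, in capitals, at chrM:11515-11544 on the plus strand. Those of mt-Nd2 end on a whole stop codon at chrM:4922-4951 on the plus strand.
mt-Nd4: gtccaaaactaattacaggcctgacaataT
mt-Nd2: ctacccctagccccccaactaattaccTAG
mt-Co3 and mt-Cytb also end on such a T, and the other coding genes end on TAA or TAG.

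The copied share of each coding gene was taken as the percent of its 50-base windows that were identical to a transcript of another gene. It was 100% for mt-Co2, 99.9% for mt-Co3, 99.5% for mt-Atp6, 98.8% for mt-Nd4l and 98.0% for mt-Nd3. These 5 genes held almost no counts: over all 10 libraries together, mt-Co2 had 3 counts, mt-Co3 had 1, mt-Atp6 had 1, mt-Nd4l had 0 and mt-Nd3 had 35. The share was 62.2% for mt-Nd4, where the copy covers the first 876 of 1378 bases and 0% of the windows in the last 300 bases, and mt-Nd4 had 29753 counts. It was 51.1% for mt-Co1, with 100% of the windows in its last 300 bases, and mt-Co1 had 44164 counts. A 50-base read lying wholly in those 300 bases would match another transcript equally well. Where in mt-Co1 the counted reads lie is not in the count table. The share was 8.19% for mt-Nd2 and 7.61% for mt-Nd5, with 31.9% and 1.99% of the windows in their last 300 bases. It was 0% for mt-Nd1, mt-Nd6, mt-Cytb and mt-Atp8. mt-Atp8 was at 0 in every library, although no copy of it was among the transcripts searched. It shares 43 of its 204 bases with mt-Atp6, so that reads in that stretch cannot be given to either gene alone. Why mt-Atp8 and the 5 copied genes above held so few counts was not tested. These shares are lower bounds, since only annotated transcripts and not the whole genome were searched, and no transcript copy covered a tRNA gene.

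**Figure D1:**
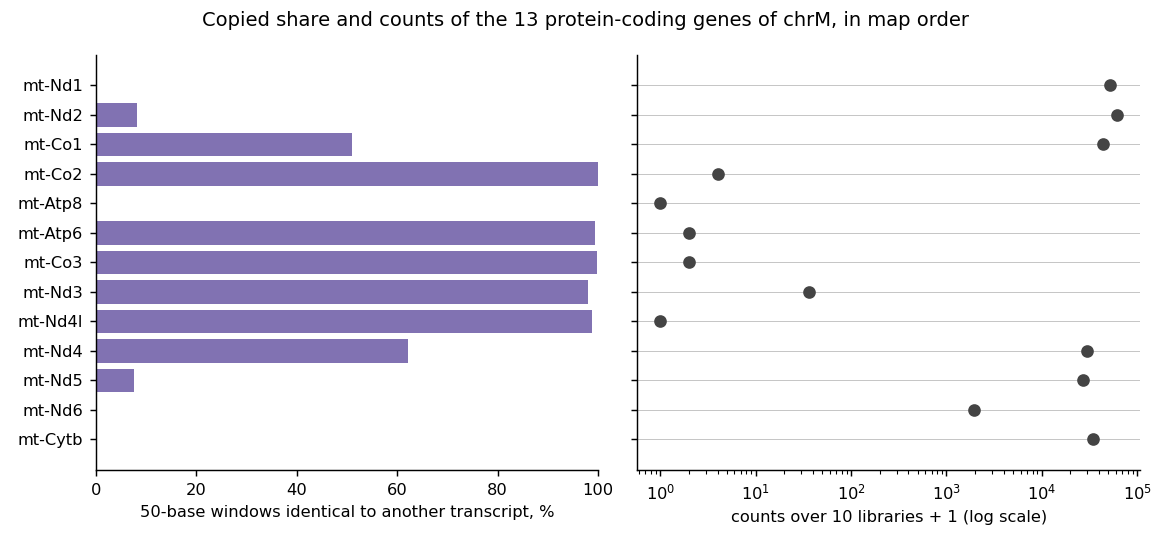
The left panel shows, for the 13 protein-coding genes of chrM in map order, the percent of 50-base windows identical to another transcript; the right panel shows each gene's counts summed over 10 libraries, plus 1, on a log axis. The 5 genes at 98.0% or more held 0 to 35 counts, and so did mt-Atp8 at 0%, while the other 7 held 1951 to 61372.

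For mt-Nd3 and its copy, most counts were assigned to the nuclear side of the pair. Gm28438 had 28, 114 and 20 counts in WT, 25, 276 and 19 in DGCR8 KO, 92 and 66 in DDX6 KO clone 1 and 108 and 93 in clone 2. mt-Nd3 had 2, 4 and 1 in WT, 2, 12 and 1 in DGCR8 KO, 2 and 2 in clone 1 and 3 and 6 in clone 2. Of the counts in both, 96.0% (841 of 876) were assigned to Gm28438, with 92.6% to 97.9% in single libraries. Its levels were uneven within groups, highest in DGCR8 KO replicate 2 and second in WT replicate 2, and the change of Gm28438 was 1.34 on the log2 scale in DDX6 KO against WT (SE 0.66, adjusted p = 0.126) and 0.65 in DGCR8 KO against WT (SE 0.76, adjusted p = 0.533). From which genome these reads were transcribed cannot be told apart from the counts. Copies on chromosome 2 had fewer counts in all, 192 for Gm13340, a copy of mt-Co1, and 80 for Gm13341, a copy of mt-Co2. Their highest libraries held 29 and 14. In some libraries Gm13340 was above Gm28438, as in WT replicate 3 (29 against 20). The change of Gm13340 was 0.40 in DGCR8 KO and -0.60 in DDX6 KO on the log2 scale (adjusted p = 0.289 and 0.139). That of Gm13341 was -0.56 and -0.74 (adjusted p = 0.387 and 0.211). The chromosome 1 copies of the other copied genes with few counts were also low over all 10 libraries. Gm28661 of mt-Co2 had 5 counts, Gm28437 of mt-Co3 had 7, Gm10925 of mt-Atp6 had 2 and Gm10222 of mt-Nd4l had 0.

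Of the 35 genes, 14 reached 3 CPM, the count relative to the scaled total of its library, in at least 3 libraries and were tested: the coding genes mt-Nd1, mt-Nd2, mt-Co1, mt-Nd4, mt-Nd5, mt-Nd6 and mt-Cytb, and the tRNA genes mt-Tf, mt-Tv, mt-Tl1, mt-Tq, mt-Tm, mt-Tt and mt-Tp. Of the other 21, 9 were at 0 in every library (mt-Atp8, mt-Nd4l and 7 tRNA genes) and 12 had some counts, at most 12 in any library. Among those 12, mt-Ti had the most, 45 counts in all, and it shares bases with mt-Nd1 on the same strand. A count of 0 allows up to 3 counts, which is 0.669 to 1.44 CPM in these libraries, for counting error only.

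In WT cells the 6 coding genes of the plus strand that were tested were among the most abundant RNAs measured. mt-Nd2 stood at rank 17 of 11683 tested genes by mean CPM, mt-Nd1 at 26, mt-Co1 at 47, mt-Cytb at 64, mt-Nd4 at 103 and mt-Nd5 at 107. mt-Nd6, the one coding gene of the minus strand, stood at rank 2998. How well priming on poly(A) captures each messenger RNA was not measured, so these ranks compare counts and need not rank abundance. On the scale of CPM per kilobase of gene, mt-Nd2 had 2099 in WT, mt-Nd1 2010, mt-Cytb 1091, mt-Co1 974, mt-Nd4 725, mt-Nd5 542 and mt-Nd6 150. A read near the tail counts a molecule once whatever its length, so that this scale puts long genes lower than the CPM does. For mt-Co1, whose last 300 bases are copied, the counted reads need not lie near the tail. The 7 tRNA genes tested lay between 42.7 CPM per kilobase for mt-Tp and 386 for mt-Tv. Minus-strand genes took 0.872% to 1.08% of the chrM counts in WT, 0.670% to 0.876% in DGCR8 KO and 0.773% to 1.142% in DDX6 KO. These ranges overlapped in each comparison. Set beside the WT library of the same number, DGCR8 KO was lower in 3 of 3, which was not tested.

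The first comparison is the share of all gene counts that fell on chrM. It was 0.883%, 0.877% and 0.843% in WT, 0.932%, 1.32% and 1.03% in DGCR8 KO, 0.641% and 0.585% in DDX6 KO clone 1, and 0.591% and 0.609% in clone 2. Every DDX6 KO library lay below every WT library and every DGCR8 KO library lay above them. The mean was 0.868% ± 0.0215 in WT (SD, n = 3), 1.10% ± 0.202 in DGCR8 KO (n = 3) and 0.606% ± 0.0252 in DDX6 KO (n = 4), so that the DDX6 KO mean was 69.9% and the DGCR8 KO mean 126% of WT. These shares are given as a description, with no test. DGCR8 KO replicate 2 stood apart from the other libraries of its group, and without it the DGCR8 KO mean was 0.982%. In these bulk libraries, fewer cells of a type and less RNA per cell cannot be told apart.

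**Figure D2:**
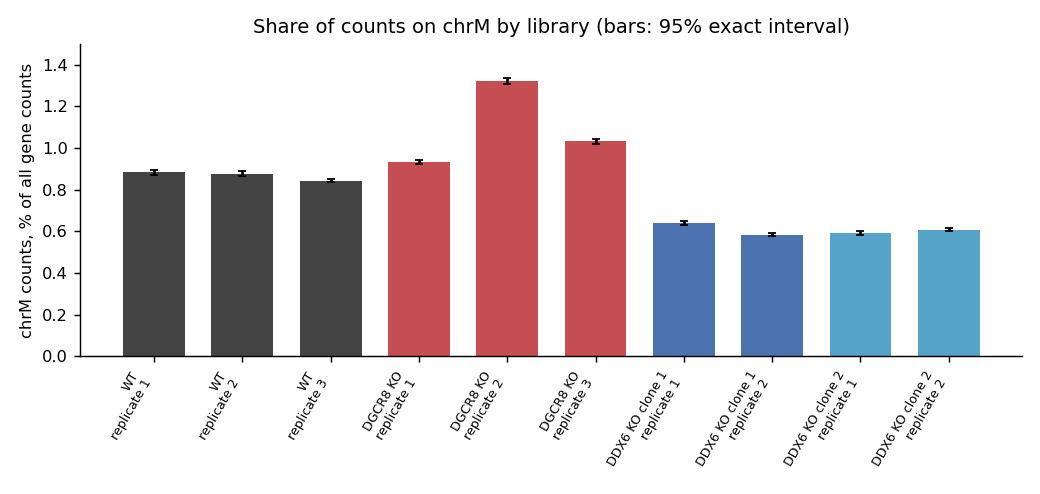
Bars show, for each of the 10 libraries, the percent of all gene counts on chrM, with the 95% exact binomial (Clopper-Pearson) interval, which covers counting error only. The 4 DDX6 KO libraries lie between 0.585% and 0.641%, below the WT range of 0.843% to 0.883%, and the DGCR8 KO libraries lie between 0.932% and 1.32%.

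In DDX6 KO cells, all 7 coding genes of chrM that could be tested were lower than in WT. The fall was of similar size in each, from 31.1% for mt-Nd5 to 44.5% for mt-Nd6, and their median log2 fold change was -0.63, against 0.02 over all genes tested. Both clones were lower than WT for each of the 7. With 2 tRNA genes also lower, 9 of the 14 genes tested passed in this comparison (limma, adjusted p under 0.05), 0 of them higher. Over all genes, 34.5% passed, 16.6% lower and 17.9% higher. None of the 9 was lower by more than 1 on the log2 scale, a size that 11.2% of all genes passed with the same adjusted p.

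Of the complex I genes, mt-Nd1 stood at 1914, 1845 and 2012 CPM in WT, at 1275 and 1073 in DDX6 KO clone 1 and at 1191 and 1145 in clone 2. The groups did not overlap, and the log2 fold change was -0.72 (SE 0.09, adjusted p = 1.53e-05). mt-Nd2 stood at 2214, 2190 and 2134 CPM in WT, at 1493 and 1305 in clone 1 and at 1414 and 1417 in clone 2. Its 4 knockout libraries were again all below WT, with a log2 fold change of -0.63 (SE 0.08, adjusted p = 1.33e-05).

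mt-Nd4, whose 3′ end has no copy, stood at 1042, 1026 and 929 CPM in WT, at 580 and 743 in clone 1 and at 584 and 651 in clone 2. No library of the knockout reached WT, and its log2 fold change was -0.64 (SE 0.13, adjusted p = 0.000733). mt-Nd5 stood at 1002, 992 and 972 CPM in WT, at 666 and 700 in clone 1 and at 657 and 697 in clone 2. The knockout libraries lay close together, all below WT, with a log2 fold change of -0.54 (SE 0.11, adjusted p = 0.00118).

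mt-Nd6, the complex I gene of the minus strand, stood at 73.9, 90.6 and 68.9 CPM in WT, at 46.9 and 54.3 in clone 1 and at 36.6 and 36.4 in clone 2. The groups did not overlap, and clone 2 held the lowest values; the log2 fold change was -0.85 (SE 0.20, adjusted p = 0.00348). The last bases of mt-Nd5 and mt-Nd6 overlap on opposite strands, and the counting used the strand.

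For complex III, mt-Cytb stood at 1242, 1252 and 1250 CPM in WT, at 857 and 784 in clone 1 and at 780 and 831 in clone 2. All 4 knockout libraries were below WT, with a log2 fold change of -0.62 (SE 0.12, adjusted p = 0.000775). For complex IV, mt-Co1 stood at 1472, 1547 and 1495 CPM in WT, at 1142 and 946 in clone 1 and at 907 and 906 in clone 2. The first library of clone 1 was the highest of the knockout and still below WT, and the log2 fold change was -0.63 (SE 0.12, adjusted p = 0.000563). The groups thus did not overlap for 7 of 7 coding genes, DDX6 KO being lower in each; over all genes tested, 39.9% did not overlap and 19.4% did so with DDX6 KO lower.

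**Figure D3:**
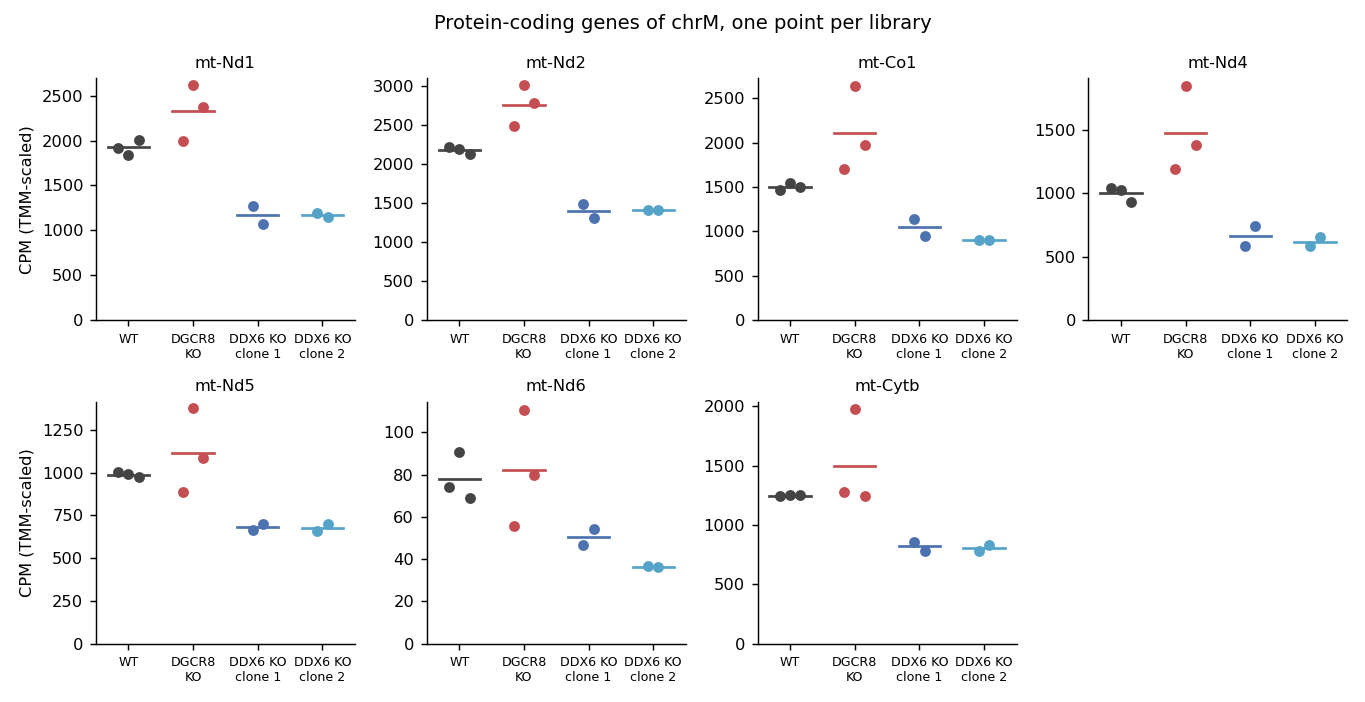
Each panel shows one protein-coding gene of chrM that was tested, with one point per library, the CPM on a linear axis from 0 and a line at each group's mean. All 4 DDX6 KO points lie below all 3 WT points in each panel, and the highest point in each panel is DGCR8 KO replicate 2.

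Clone by clone, 6 of the 14 genes passed in clone 1 against WT, all of them coding and lower, where 23.8% of all genes passed and 10.7% were lower. In clone 2 against WT, 7 passed, again coding and lower, where 24.6% of all genes passed and 11.6% were lower. A fall beyond 1 was called in 0 of the 14 genes in clone 1 and in 1 in clone 2, where 9.79% and 9.92% of all genes passed that size in either direction. The gene between those counts was mt-Nd6, with a log2 fold change of -0.60 in clone 1 (SE 0.24, adjusted p = 0.0715) and -1.07 in clone 2 (SE 0.24, adjusted p = 0.00468). The other 6 coding genes lay between -0.72 and -0.53 in clone 1 and between -0.73 and -0.54 in clone 2. In the direct comparison of the clones, 0 of the 14 genes passed in limma and 0 in edgeR or DESeq2, every adjusted p being 0.9997 in limma; over all genes 5 passed (0.0428%) and 2.43% had an unadjusted p under 0.05. The difference of clone 2 from clone 1 was between -0.47 for mt-Nd6 (SE 0.28) and 0.02 for mt-Nd2 (SE 0.11) among the coding genes. With 2 libraries a clone, the calls in a clone rest on few libraries, and a fit without either leaves 1. With any 1 library left out, the median log2 fold change of the 7 coding genes was -0.67 to -0.56 in clone 1. In clone 2 it was -0.69 to -0.61.

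Scaling decided how firmly these differences could be called. With libraries scaled by spike-in totals in place of gene counts, 0 of the 14 genes passed against WT. This held in DDX6 KO, DGCR8 KO and either clone. Calls fell over all 11683 genes too. In DDX6 KO 509 were higher and 215 lower on that scale, against 2088 and 1944 in the main fit. In DGCR8 KO 529 were higher and 486 lower, in clone 1 291 and 66, and in clone 2 214 and 97. The same 7 coding genes had log2 fold changes of -0.79 to -0.47 in DDX6 KO under spike-in scaling (adjusted p = 0.294 to 0.635). Spike-in counts ran from 1.22% to 2.36% of gene counts among the WT libraries and from 1.11% to 2.42% among the DDX6 KO libraries, and how they were added is not given in the sources used here. With total counts in place of trimmed-mean scaling, the median of all genes moved from 0.02 to 0.15 in DDX6 KO against WT and the coding genes of chrM kept their calls.

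In DGCR8 KO cells, coding genes of chrM went the other way. mt-Nd4, mt-Co1, mt-Nd2 and mt-Nd1 were higher than in WT, by 45.3%, 37.6%, 26.4% and 20.1%, while mt-Cytb, mt-Nd5 and mt-Nd6 did not pass. The tRNA genes mt-Tl1 and mt-Tt were lower. In all 6 of the 14 genes passed, 4 higher and 2 lower, where 36.3% of all genes passed, 19.9% higher and 16.5% lower. Of the 14 genes, 2 passed with a change beyond 1 on the log2 scale, namely these tRNA genes. That is near the share in all genes, of which 14.7% passed that size with the same adjusted p. The median log2 fold change was 0.26 over the 7 coding genes, against 0.004 over all genes tested.

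mt-Nd4 stood at 1189, 1841 and 1381 CPM in DGCR8 KO, all above the WT values, with a log2 fold change of 0.54 (SE 0.13, adjusted p = 0.00302). mt-Co1 stood at 1707, 2637 and 1977 CPM, also all above WT, with a log2 fold change of 0.46 (SE 0.12, adjusted p = 0.00676). mt-Nd2 stood at 2493, 3014 and 2781 CPM, with no overlap with WT and a log2 fold change of 0.34 (SE 0.08, adjusted p = 0.00362). These 3 coding genes, and 44.8% of all genes tested, did not overlap between DGCR8 KO and WT.

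mt-Nd1 stood at 1996, 2616 and 2379 CPM in DGCR8 KO, and its lowest library fell within the WT range. Its log2 fold change was 0.26 (SE 0.10, adjusted p = 0.0376), and the call was lost in 11 of 22 alternative settings other than spike-in scaling, among them the fits without any 1 WT library, DGCR8 KO replicate 3, clone 2 replicate 1 or DGCR8 KO replicate 2 (for the last, log2 fold change 0.18, adjusted p = 0.152). mt-Cytb stood at 1280, 1974 and 1246 CPM, of which the last was inside the WT range, and its log2 fold change was 0.23 (SE 0.13, adjusted p = 0.161). mt-Nd5 stood at 886, 1376 and 1087 CPM, on both sides of WT, with 0.15 (SE 0.12, adjusted p = 0.331). mt-Nd6 stood at 55.7, 111 and 79.8 CPM, also on both sides, with 0.03 (SE 0.20, adjusted p = 0.925).

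DGCR8 KO replicate 2 was the highest of the 10 libraries for 7 of 7 coding genes, while 13.2% of all genes tested were highest there. Its chrM share was 1.32% against 0.932% and 1.03% in the other 2 libraries of the group, its total count of 3041619 lay between theirs, and it was also the highest library for Gm28438. Without it, 5 genes passed in DGCR8 KO against WT, and mt-Co1 stood at 0.29. mt-Nd4, mt-Co1 and mt-Nd2 kept their calls and direction in 22 of 22 alternatives other than spike-in scaling, at 0.37 to 0.68, 0.29 to 0.60 and 0.28 to 0.41 on the log2 scale. Under spike-in scaling they stood at 0.38, 0.30 and 0.18 (adjusted p = 0.695, 0.760 and 0.874).

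**Figure D4:**
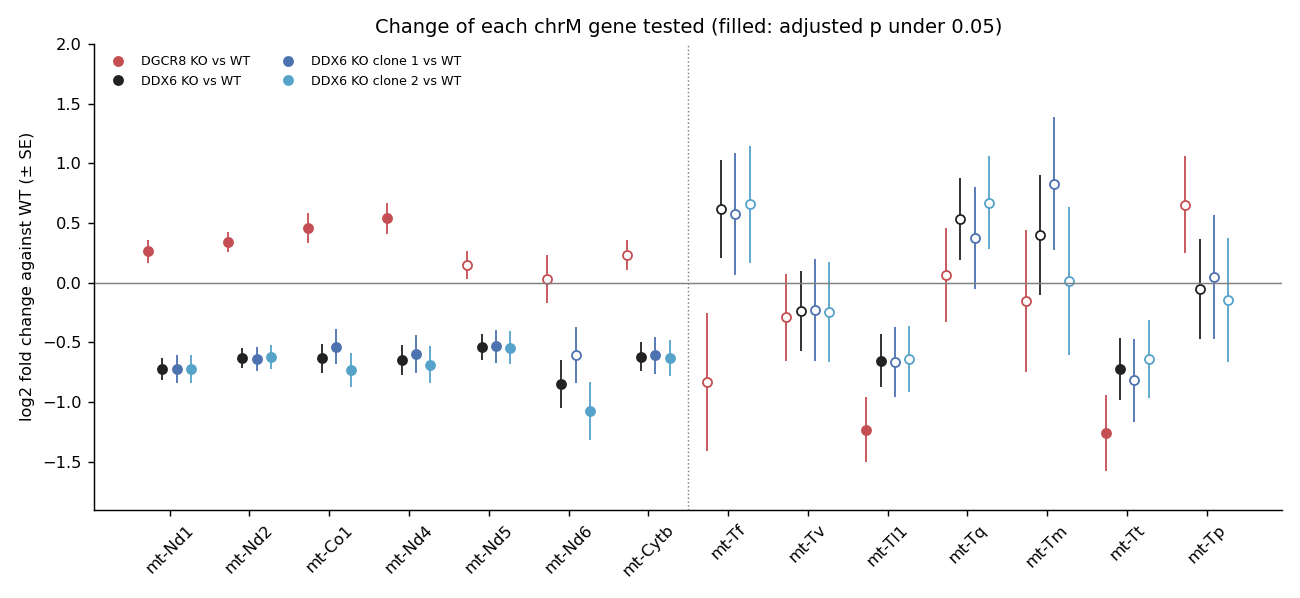
Points show the log2 fold change against WT of each of the 14 chrM genes tested, with bars of 1 SE, for DGCR8 KO, DDX6 KO and each DDX6 KO clone; filled points have an adjusted p under 0.05, and the dotted line separates coding genes from tRNA genes. The coding genes lie between -0.85 and -0.54 in DDX6 KO and between 0.03 and 0.54 in DGCR8 KO.

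Compared directly, the knockouts differed in all 7 coding genes tested, DGCR8 KO being higher in each. The log2 difference was 1.18 for mt-Nd4 (SE 0.12, adjusted p = 5.93e-07), 1.09 for mt-Co1 (SE 0.12, adjusted p = 8.90e-07) and 0.99 for mt-Nd1 (SE 0.09, adjusted p = 1.53e-07). It was 0.97 for mt-Nd2, 0.88 for mt-Nd6, 0.85 for mt-Cytb and 0.69 for mt-Nd5, the smallest. One tRNA gene, mt-Tf, was lower in DGCR8 KO than in DDX6 KO. In all 8 of the 14 genes passed, where 44.0% of all genes passed, 23.0% higher and 21.0% lower in DGCR8 KO. The libraries of the knockouts did not overlap for 7 of 7 coding genes, as for 45.8% of all genes tested. Differences beyond 1 on the log2 scale were called in 3 of the 14 genes and in 17.1% of all genes. Under spike-in scaling, the 7 coding genes did not pass, at 0.46 to 0.95 on the log2 scale (adjusted p = 0.0704 to 0.487), when the median of all genes stood at -0.20.

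The 7 tRNA genes tested were low, at 2.86 to 26.6 CPM on average in WT, and mature tRNAs have no long poly(A) tail, so that these counts need not stand for mature tRNA. mt-Tl1, which carries leucine and lies between the ribosomal RNA genes and mt-Nd1, stood at 12.96, 11.6 and 15.8 CPM in WT and at 4.9, 6.4 and 6.1 in DGCR8 KO. All 3 knockout libraries were below WT, and the log2 fold change was -1.23 (SE 0.27, adjusted p = 0.00174). In DDX6 KO it stood at 8.4 and 8.7 in clone 1 and 9.1 and 8.4 in clone 2, between the other groups, with a log2 fold change against WT of -0.65 (SE 0.22, adjusted p = 0.0298).

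mt-Tt, which carries threonine and follows mt-Cytb without a gap, stood at 12.5, 10.2 and 14.05 CPM in WT and at 4.6, 5.1 and 5.7 in DGCR8 KO. It was below WT in every DGCR8 KO library, with a log2 fold change of -1.26 (SE 0.32, adjusted p = 0.00485). In DDX6 KO it stood at 7.7, 6.3, 5.3 and 10.9 CPM, overlapping with WT in the last, with a log2 fold change of -0.72 (SE 0.26, adjusted p = 0.0404). The falls of both tRNA genes in DGCR8 KO held in 22 of 22 alternatives other than spike-in scaling, where they were -1.33 and -1.37 (adjusted p = 0.0913 and 0.0902). Those in DDX6 KO were lost in 10 and 11 of 22, with adjusted p up to 0.191 and 0.194, and DESeq2 called neither. Both were lost without WT replicate 3, either library of clone 1 or clone 2 replicate 1, mt-Tl1 also without clone 2 replicate 2 and mt-Tt without WT replicate 1. Against DDX6 KO, DGCR8 KO differed by -0.58 for mt-Tl1 and -0.54 for mt-Tt (adjusted p = 0.10 and 0.20).

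mt-Tf, which carries phenylalanine and is the first gene of the plus strand, stood at 7.7, 11.2 and 3.8 CPM in WT, at 3.7, 9.8 and 0.81 in DGCR8 KO and at 8.4, 10.4, 10.6 and 9.5 in DDX6 KO. The groups overlapped. Beside the WT library of the same number, DGCR8 KO was lower in 3 of 3, a count that was not tested and has no share of all genes beside it. The change in DGCR8 KO against WT was -0.83 on the log2 scale (adjusted p = 0.278). The difference of DGCR8 KO from DDX6 KO was -1.45 (SE 0.53, adjusted p = 0.0349). It was -0.70 (adjusted p = 0.209) without DGCR8 KO replicate 3 and -2.21 without replicate 2. The call was lost also without DGCR8 KO replicate 1, clone 1 replicate 2 or either library of clone 2, and edgeR and DESeq2 did not make it. mt-Tv (valine) had log2 fold changes of -0.29 in DGCR8 KO and -0.24 in DDX6 KO, mt-Tm (methionine) of -0.16 and 0.40, and mt-Tp (proline, minus strand) of 0.65 and -0.05, with adjusted p of 0.226 to 0.936. mt-Tq (glutamine, minus strand) had 0.06 and 0.53 (adjusted p = 0.917 and 0.244).

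**Figure D5:**
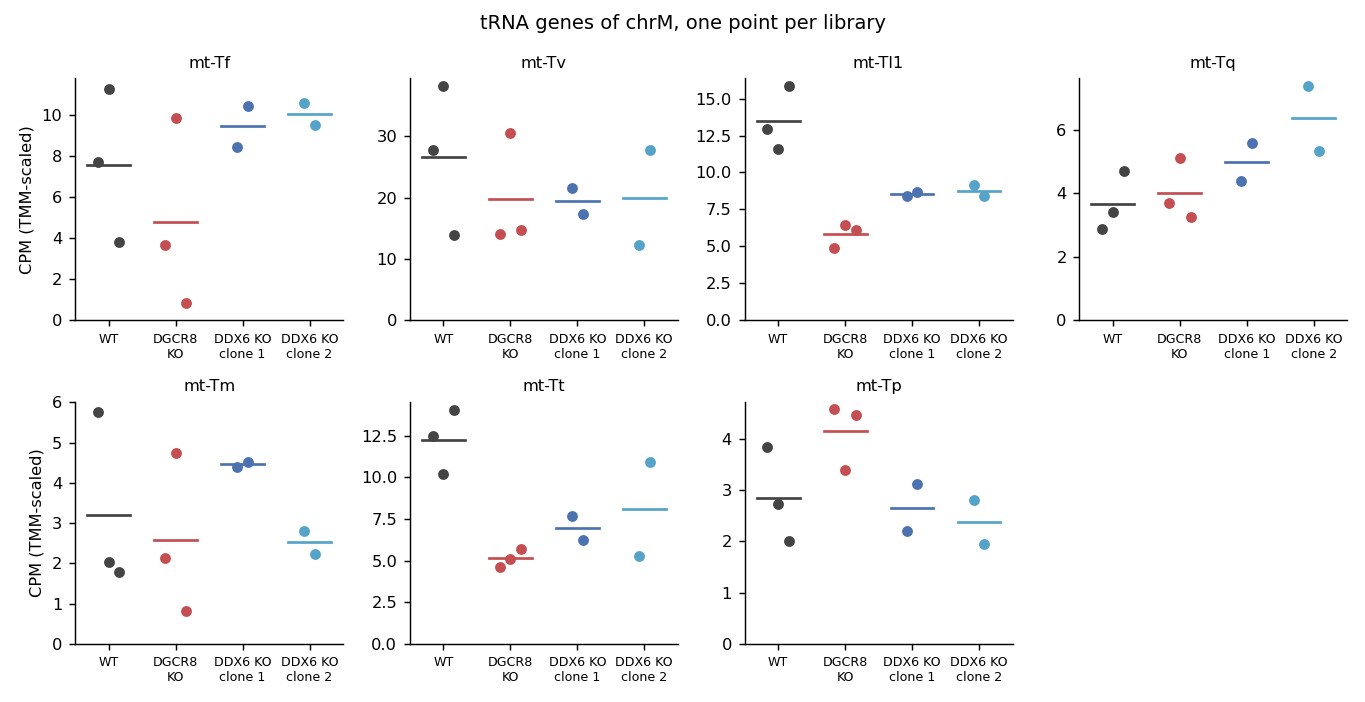
Each panel shows one tRNA gene of chrM that was tested, with one point per library, the CPM on a linear axis from 0 and a line at each group's mean. mt-Tl1 and mt-Tt have all 3 DGCR8 KO points below all WT points; the other panels have overlapping WT and DGCR8 KO points.

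Within chrM, the proportions of the coding genes were close between groups. mt-Nd2 took 24.2% of chrM counts in WT, 24.4% in DGCR8 KO and 24.3% in DDX6 KO, and mt-Cytb took 13.9%, 13.03% and 14.03%. In DGCR8 KO the libraries did not overlap with WT for mt-Co1 (17.7% to 19.3% against 16.3% to 17.1%), mt-Nd4 (12.3% to 13.5% against 10.4% to 11.5%) and mt-Nd5 (9.18% to 10.1% against 10.9% to 11.1%), the first and second being higher and the last lower. In DDX6 KO no coding gene was above the WT range in all 4 libraries or below it in all 4; mt-Nd5 came nearest, at 10.9% to 12.4%, with 3 libraries above that range and 1 just below it. The proportions add to the whole, so that a gain of one gene lowers the others.

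The tRNA genes together took 0.665% to 0.940% of chrM counts in WT, 0.364% to 0.483% in DGCR8 KO and 0.963% to 1.22% in DDX6 KO, with no overlap between the groups. As counts scaled to a common total of gene counts (CPM without trimmed-mean scaling), they held 56.1 to 82.4 in WT, 37.5 to 63.8 in DGCR8 KO and 56.9 to 74.0 in DDX6 KO. Those ranges overlapped, while the coding counts of DDX6 KO were lower. Set beside the WT library of the same number, the tRNA counts were lower in DGCR8 KO in 3 of 3 on this scale; no test was made of these sums.

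The nuclear genes that serve the mitochondrial genome were described through 5 lists, to be read against the 16.6% lower and 17.9% higher of all genes in DDX6 KO and the 16.5% lower and 19.9% higher in DGCR8 KO. Of 18 tested genes for transcription and replication of mitochondrial DNA, 0 were higher and 1 (5.56%) was lower in DDX6 KO, Mgme1, a nuclease of mitochondrial DNA maintenance (log2 fold change -0.44, adjusted p = 0.0303), with a median of -0.05. That call was lost in 7 of 22 alternatives other than spike-in scaling, among them the fits without WT replicate 2 or 3, clone 1 replicate 1 or either library of clone 2. In DGCR8 KO 0 were higher and 2 (11.1%) lower: Tfam, which packages mitochondrial DNA and starts its transcription (-0.56, adjusted p = 0.00657), and Ssbp1, which binds its single strands (-0.53, adjusted p = 0.0331). Ssbp1 lost its call in 5 of 22, among them the fits without WT replicate 1 or 2 or DGCR8 KO replicate 3, and that without DGCR8 KO replicate 1, where it stood at -0.35.

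Of 28 tested genes for mitochondrial RNA processing, polyadenylation and decay, 2 (7.14%) were higher and 5 (17.9%) lower in DDX6 KO, the latter near the share of all genes. Lrpprc, which keeps mitochondrial messenger RNAs stable and adenylated, stood at 410 ± 48.4 CPM in WT (SD, n = 3) and 257 ± 33.0 in DDX6 KO (n = 4), with a log2 fold change of -0.68 (SE 0.12). In DGCR8 KO Lrpprc stood at 408 ± 65.5 CPM (n = 3) with a log2 fold change of -0.03 (adjusted p = 0.893). Trnt1, which adds the CCA end to tRNAs, was higher in DDX6 KO (1.24), and 1110008L16Rik, the nuclease subunit of mitochondrial RNase P, was lower in DDX6 KO (-0.68) and higher in DGCR8 KO (0.78). In DGCR8 KO 3 (10.7%) were higher and 5 (17.9%) lower, with Grsf1, an RNA-binding protein of mitochondrial RNA granules, higher (0.81) and Slirp, the partner of Lrpprc, lower (-0.69).

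Of 71 tested nuclear genes for respiratory chain subunits, 28 (39.4%) were lower and 2 (2.82%) higher in DDX6 KO, with a median of -0.26 against 0.02 over all genes. In DGCR8 KO 18 (25.4%) were lower and 4 (5.63%) higher, with a median of -0.17 against 0.004. The genes higher in DDX6 KO, Ndufa9 (0.34) and Ndufb2 (0.45), lie on chromosome 6, as does Trnt1. On the same chromosome, Ndufa5 of this list did not pass in DDX6 KO (0.24, adjusted p = 0.184). Ndufb7 and Cox4i1, lower in DGCR8 KO, lie on chromosome 8, where Ndufa13 did not pass (-0.14, adjusted p = 0.328). The rest of the 18 genes lower in DGCR8 KO lie on other chromosomes. Shifts of whole chromosomes were not tested. The largest falls in DDX6 KO were in Sdhb of complex II (-0.64), Ndufa7 of complex I (-0.60) and Uqcr10 of complex III (-0.59), and in DGCR8 KO in Ndufb7 (-0.98), Uqcrq (-0.82) and Ndufc1 (-0.77). Of 21 tested genes for outer membrane, import and matrix proteins, 9 (42.9%) were lower and 1 (4.76%) higher in DDX6 KO. Among them, the matrix chaperonins Hspe1 (-0.80) and Hspd1 (-0.77) were lower and Mfn2, a fusion protein of the outer membrane, was higher (0.98). In DGCR8 KO 8 (38.1%) were lower and 2 (9.52%) higher, with Slc25a4, the ADP/ATP carrier, lower (-2.05) and Mfn2 (1.21) and Mfn1 (0.68) higher. Of 9 tested regulators of mitochondrial biogenesis, 1 was higher and 1 lower in DDX6 KO (11.1% each), Esrra (0.66) and Hcfc1 (-0.31), and 0 in either direction passed in DGCR8 KO in limma. Esrra lost its call in 5 of 22 alternatives other than spike-in scaling, among them the fits without clone 1 replicate 2 and without WT replicate 3, where it stood at 0.40. Hcfc1 lost it in 9 of 22, among them the fits without WT replicate 1 or 3, either library of clone 1 or clone 2 replicate 1. Ppargc1a was at 0 in every library.

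The labelled genotypes and cell type were checked. Dgcr8 stood at 50.4 to 65.8 CPM in WT, 9.2 to 15.5 in DGCR8 KO and 35.1 to 52.1 in DDX6 KO, and Ddx6 at 505 to 586 in WT, 486 to 521 in DGCR8 KO, 135 to 149 in DDX6 KO clone 1 and 25.7 to 39.0 in clone 2. The reads lie at the 3′ end of these genes, away from the edited exon of Ddx6, so they check the level and not the edit. All 10 pluripotency markers were expressed, at a summed 4320 to 4746 CPM in WT, 3939 to 4383 in DGCR8 KO and 4239 to 4670 in DDX6 KO. Among them Nanog was higher (0.62) and Tfcp2l1 lower (-0.50) in DDX6 KO. In DGCR8 KO Utf1 (0.67) and Sox2 (0.50) were higher and Klf4 (-0.46), Tfcp2l1 (-0.41), Nanog (-0.33) and Zfp42 (-0.27) lower. Of 8 markers of fibroblast feeder cells 2 passed the filter, with a summed 5.8 to 9.1 CPM in WT, 4.9 to 5.8 in DGCR8 KO and 7.7 to 10.99 in DDX6 KO. Of 6 endoderm markers 1 passed the filter, Dab2, which was higher in DDX6 KO (1.56) and lower in DGCR8 KO (-2.36), and the list summed to 8.0 to 13.4 CPM in WT, 3.1 to 3.7 in DGCR8 KO and 16.8 to 23.4 in DDX6 KO. Of 6 trophoblast markers 3 passed the filter, among which Krt8 (1.94) and Krt18 (1.29) were higher in DDX6 KO and Krt8 (1.43) in DGCR8 KO, with Eomes at -0.12 and -0.43 (adjusted p = 0.776 and 0.335), with Elf5 at 0 in every library, and the list summed to 17.7 to 28.3 CPM in WT, 17.0 to 36.1 in DGCR8 KO and 29.1 to 47.5 in DDX6 KO. Of 6 markers of primed epiblast or neural cells 5 passed the filter, with Fgf5 at 0 in every library, Sox1 higher (1.37) and Otx2 (-2.22) and Nes (-0.90) lower in DDX6 KO, Pax6 higher (2.58) and Nes (-1.39), Pou3f1 (-1.15) and Sox1 (-0.75) lower in DGCR8 KO, and the list summed to 102 to 137 CPM in WT, 85.4 to 93.3 in DGCR8 KO and 102 to 147 in DDX6 KO. The part of such cells in the chrM levels was not tested.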

How the data were processed

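Expression was measured by QuantSeq 3′ FWD (oligo-dT primed, single-end 50 bp reads) in 10 libraries. The deposited values are raw counts per gene, made by the authors with cutadapt 1.14, STAR 2.5.3a on mm10 keeping uniquely mapped reads, and featureCounts 1.5.3, stranded, with a Gencode annotation without ribosomal RNA genes plus 92 spike-in sequences. No molecular identifiers are stated, so intervals and floors cover counting error only. Gene lengths came from the same deposited count table.

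Libraries were grouped by title, and all were used. Totals ran from 2131156 to 4745083 counts. The 11683 genes that reached 3 CPM in 3 or more libraries were normalized with TMM factors (edgeR 4.0.16) and tested with voom in limma 3.58.1 (R 4.3.3) over all 10 libraries, with genotype, or genotype and clone, as the only term. Two-sided p-values were adjusted over those 11683 genes (Benjamini-Hochberg) and called under 0.05. The 4 DDX6 KO libraries count as 4 replicates, as in the study, although they are 2 clones. CPM values are over the scaled total of tested genes. DESeq2 1.42.0 and edgeR were alternatives; the limma, edgeR and DESeq2 fits were run on simulated counts first. All chrM genes are reported. List members are named as the 3 largest changes among those passing in each knockout, and a few others for their chromosome. The members and lists were chosen with earlier results of these data known.

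Same-numbered WT and DGCR8 KO libraries deviated together (correlations of deviations 0.155, 0.281 and 0.302), so their numbers were read as pairs; the pairing is a hint from the data, since the labels give only the number. Copied sequence was searched with 50-base windows against 141730 other transcripts of Gencode M21 (GRCm38), from which all sequences were read; this search was chosen after seeing the data, since no genome sequence was used here.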

Additional observations from a re-analysis of the deposited data

Results flagged for a closer look

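mt-Co1 in DDX6 KO clone 1 replicate 1 stood at 1142 CPM, far from the other 3 DDX6 KO libraries at 906 to 946 CPM. This was 1 of 17 measures examined for a library far from its group, and chance flags about 1 in 20 groups. Without that library the log2 fold change of mt-Co1 in DDX6 KO against WT was -0.71.

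The levels of 8 genes differed between the DGCR8 KO and DDX6 KO libraries in the direct test (limma, adjusted p under 0.05). On the log2 scale, DGCR8 KO minus DDX6 KO, the difference was 1.18 for mt-Nd4, 1.09 for mt-Co1, 0.99 for mt-Nd1, 0.97 for mt-Nd2, 0.88 for mt-Nd6, 0.85 for mt-Cytb, 0.69 for mt-Nd5 and -1.45 for mt-Tf. The 7 coding genes passed in 22 of 22 alternatives other than spike-in scaling and mt-Tf in 14.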

How the results depend on the processing

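Spike-in scaling gave 0 genes passing in DDX6 KO, DGCR8 KO, clone 1 and clone 2 against WT. It gave 1, mt-Tf, in DGCR8 KO against DDX6 KO, where 506 of all genes were higher and 1056 lower. Calls over all genes also fell on that scale, and the cause was not tested. Requiring a log2 fold change beyond 1 as well left 2 genes in DGCR8 KO, 0 in DDX6 KO, 3 in the direct comparison, 0 in clone 1 and 1 in clone 2. Leaving out 1 library gave 5 to 7 genes in DGCR8 KO, 7 to 9 in DDX6 KO, 7 to 8 in the direct comparison, 3 to 7 in clone 1, 4 to 7 in clone 2 and 0 between the clones, where a clone left with 1 library is assumed to vary like the other groups. Without mt-Nd4, mt-Co1 and the other copied genes, the chrM share was 0.626% in WT, 0.752% in DGCR8 KO and 0.437% in DDX6 KO, which by construction counts fewer genes. Leaving out 1 library gave chrM shares of 0.860% to 0.880% in WT, 0.982% to 1.18% in DGCR8 KO and 0.595% to 0.613% in DDX6 KO. With the replicate block, 6 genes passed in DGCR8 KO, 7 in the direct comparison and 7 in each clone. In DDX6 KO 8 passed, where mt-Tl1 and mt-Tt no longer passed and mt-Tv did (-0.68, adjusted p = 0.0371). Libraries of WT and the DDX6 KO clones correlated at 0.169 and 0.156 for replicate 1 and at 0.071 and 0.0095 for replicate 2. The values for replicate 1 are like the 0.155 of WT and DGCR8 KO, and same-numbered libraries of the clones correlated at 0.207. An effect of the number in DDX6 KO was not tested beyond this block, and no pairs were read there. Every other alternative (other size factors, filters, tests, weights and subsets of libraries) gave 5 to 6 genes in DGCR8 KO, 7 to 9 in DDX6 KO, 7 to 9 in the direct comparison, 6 to 7 in clone 1 and 7 in clone 2. Of the log2 changes of single genes followed through all alternatives, 148 values lost their call and 0 changed direction, and 12 values of the median over the 7 coding genes moved by more than the spread between replicates, to none of the opposite sign. Depth limits the tRNA genes, which rest on 90 to 647 counts over 10 libraries.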
